A study of Mus musculus with 16 samples.

Results

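Trimethylation of lysine 4 of histone H3 (H3K4me3) was compared between P199L-ERG cells and empty-vector cells over every region of the merged H3K4me3 peak set and every gene that the deposited annotation attached to one. The comparison held 43128 regions covering 48.3 Mb of mm10 and 15571 genes, out of 348079 regions of 5 histone marks in the series, and it rested on 2 of the 16 samples, 1 library a side. The study expressed human ERG, a member of the ETS transcription factors that blood stem cells depend on, in ER-Hoxb8 cells, and asked whether a single amino acid change (P199L, a proline replaced by leucine at the end of the PNT domain) alters its hold on myeloid differentiation. ER-Hoxb8 cells are a C57BL/6 mouse line of granulocyte-monocyte progenitors kept immature by an estrogen-regulated Hoxb8. The P199L-ERG cells carried HA-tagged human P199L-ERG in a lentiviral vector under the human PGK promoter, the WT-ERG cells carried unaltered human ERG in the same vector, and the empty-vector cells carried the vector without ERG. All 3 were stable lines sorted for GFP from the same parent and grown in the presence of estrogen. The study's ChIP methods do not give the estrogen condition at harvest. Endogenous mouse Erg was not removed. In RNA of these lines after estrogen withdrawal, the paper reported lower endogenous Erg in empty-vector cells than in cells with either ERG variant. Each line stands as a single culture here, and no replicate exists, so the differences below are descriptions of these libraries and carry no p-value.

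H3K4me3 is laid down by the SET1 and MLL families of methyltransferases around the start sites of genes that are active or poised for activity, and KDM5 and LSD1 demethylases remove methyl groups from the same residue. CpG-rich promoters of housekeeping genes carry broad and constant H3K4me3 in most cell types. Promoters of cell-type-restricted genes, which often hold few CpG sites, gain the mark as the gene comes into use, and small amounts are also found at strong enhancers.

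The libraries had 19834069 reads in the regions for P199L-ERG, 22278560 for WT-ERG and 21707635 for the empty vector. WT-ERG is given for orientation and shares the empty-vector library as its control. The authors' scaling multiplied each read count by 0.948 in P199L-ERG, 1.00 in WT-ERG and 1.04 in the empty vector, and values below are these normalized reads unless they are called reads. A start-site region was present for 11 of 12 granulocyte-monocyte progenitor markers, with a sum of 38153 normalized reads in P199L-ERG cells and 43962 in empty-vector cells, and for none of the 5 T lymphoid, 3 hepatocyte or 3 neuron markers. The progenitor marker with no start-site region was Elane, and Prtn3 and Csf1r had only 96 and 188 normalized reads in P199L-ERG cells. Regions were found at the starts of 3 of 5 B lymphoid, 3 of 6 erythroid, 3 of 4 megakaryocyte and 1 of 4 endothelial markers, while Pax5, Gata1, Cdh5, Tek and Kdr were among those with none. The B lymphoid Ebf1 had 2636 at its start in P199L-ERG cells and 3518 in empty-vector cells. The erythroid Klf1 had 1097 and 1620. The endothelial exception was Pecam1, an adhesion molecule that leukocytes and platelets also carry, with 458 normalized reads at its start in P199L-ERG cells, 276 in WT-ERG cells and 239 in empty-vector cells.

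The P199L-ERG to empty-vector ratio followed the base composition of the regions. Regions were placed in 10 groups of equal size by GC content, and the median log2 ratio was 0.88 in the group with a median GC content of 39.1%, -0.00 at 48.9% and -0.46 at 60.7%. With WT-ERG in place of the empty vector as the denominator, the P199L-ERG medians at the 2 ends were 0.87 and -0.53. The ratio of WT-ERG to the empty vector stayed between -0.03 and 0.07 over the same groups. The rank correlation between GC content and ratio over the 43128 regions was -0.572 for P199L-ERG and 0.050 for WT-ERG; regions of a library share its depth and preparation, so these values only describe the libraries. The gradient was present at every level of signal. Among the regions of lowest GC content the median ratio was 0.98 in the group of lowest signal (of 4) and 0.53 in the group of highest signal, and among those of highest GC content it was -0.19 and -0.52 in the same signal groups. In the P199L-ERG library of H3K27ac, an acetylation mark of active promoters and enhancers, the medians ran in the same direction, with 1.41 in the group of lowest GC content and -1.08 in that of highest. For H3K9ac, another acetylation mark of active promoters, the extremes were 0.25 and -0.35. The WT-ERG to empty-vector ratio was not flat in these other marks. In the lowest and highest GC groups its medians were 0.14 and -0.25 for H3K9ac and -0.25 and 0.16 for H3K27ac. For H3K4me1, a mark of enhancers, they were 0.82 and 0.32, beside 0.36 and -0.48 for P199L-ERG. Whether the H3K4me3 gradient lies in the chromatin or in library preparation was not tested. With 1 library a side these cannot be told apart. A GC adjustment that centres every library on its median within groups of GC content and signal was therefore made. Ratios below are as deposited unless called adjusted, and where a pair is given the adjusted one stands second. By construction the adjusted values cannot show a shift shared by all regions of like composition or like signal.

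**Figure D1:**
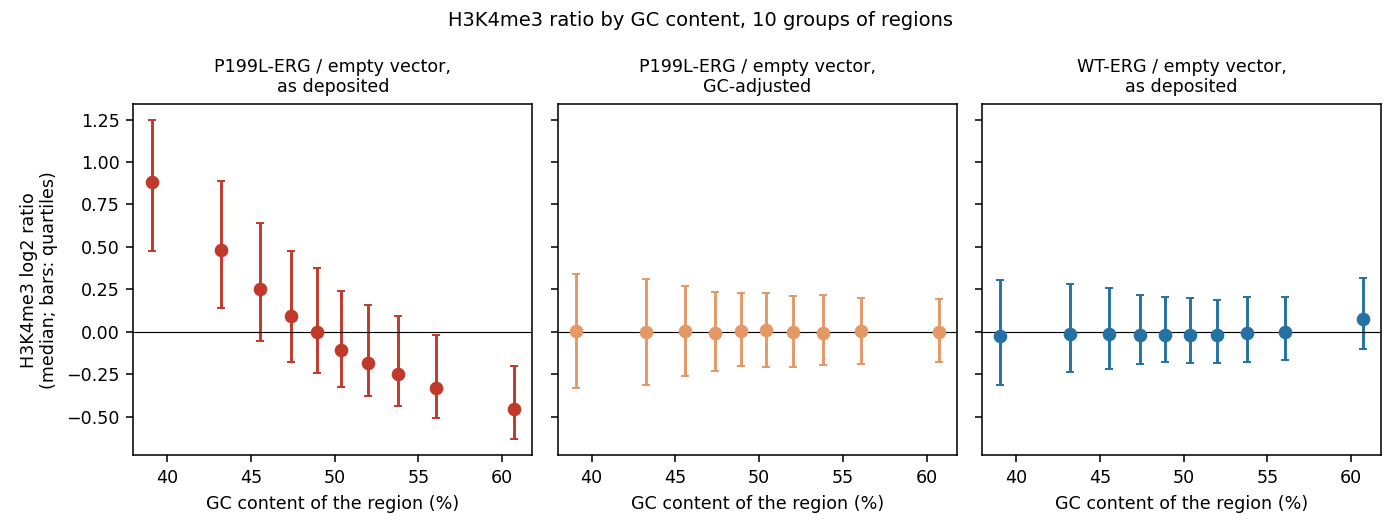
Median H3K4me3 log2 ratio (points) with quartiles (bars) against GC content in percent for 10 equal groups of regions: P199L-ERG over empty vector as deposited (left) and GC-adjusted (middle), and WT-ERG over empty vector as deposited (right). The left panel spans 0.88 at the lowest GC content and -0.46 at the highest, the middle panel lies within 0.01 of 0, and the right panel stays between -0.03 and 0.07.

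Promoters of differing base composition are shown because the ratio followed composition. The 6 genes were chosen after their values were seen, to hold AT-rich and GC-rich promoters with differences in both directions. The 250 bases before the RefSeq start site (build GRCm38.p6, which is mm10) are printed 5′ to 3′ on the gene's strand for 6 genes, with CG sites in capitals. The first 4 genes had more H3K4me3 reads in P199L-ERG cells than in empty-vector cells, and the last 2 had fewer. None of these windows overlapped an exon of the GENCODE annotation.
Serpina3g: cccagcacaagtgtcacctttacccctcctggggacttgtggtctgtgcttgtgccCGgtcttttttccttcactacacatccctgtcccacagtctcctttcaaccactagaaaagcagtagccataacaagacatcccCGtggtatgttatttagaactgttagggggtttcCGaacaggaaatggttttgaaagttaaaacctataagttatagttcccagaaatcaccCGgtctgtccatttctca
Stfa2l1: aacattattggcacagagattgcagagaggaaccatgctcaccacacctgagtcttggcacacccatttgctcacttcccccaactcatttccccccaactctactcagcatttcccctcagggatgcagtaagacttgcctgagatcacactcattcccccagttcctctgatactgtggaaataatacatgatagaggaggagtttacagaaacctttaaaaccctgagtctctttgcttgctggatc
Cpa3: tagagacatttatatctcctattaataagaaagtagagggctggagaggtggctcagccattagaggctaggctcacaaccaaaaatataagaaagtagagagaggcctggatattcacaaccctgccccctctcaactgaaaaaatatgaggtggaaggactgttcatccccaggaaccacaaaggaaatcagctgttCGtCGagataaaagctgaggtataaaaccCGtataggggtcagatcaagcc
Ccnjl: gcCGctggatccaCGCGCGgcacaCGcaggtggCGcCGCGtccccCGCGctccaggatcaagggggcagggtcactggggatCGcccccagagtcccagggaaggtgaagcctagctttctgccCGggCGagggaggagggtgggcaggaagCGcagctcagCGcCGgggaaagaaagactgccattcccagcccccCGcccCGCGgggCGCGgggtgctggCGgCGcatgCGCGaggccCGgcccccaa
Chst13: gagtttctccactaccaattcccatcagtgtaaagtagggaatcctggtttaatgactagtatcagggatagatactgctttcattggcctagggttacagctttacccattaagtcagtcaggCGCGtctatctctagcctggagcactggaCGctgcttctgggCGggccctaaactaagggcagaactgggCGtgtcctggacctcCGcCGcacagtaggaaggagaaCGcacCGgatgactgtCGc
Glcci1: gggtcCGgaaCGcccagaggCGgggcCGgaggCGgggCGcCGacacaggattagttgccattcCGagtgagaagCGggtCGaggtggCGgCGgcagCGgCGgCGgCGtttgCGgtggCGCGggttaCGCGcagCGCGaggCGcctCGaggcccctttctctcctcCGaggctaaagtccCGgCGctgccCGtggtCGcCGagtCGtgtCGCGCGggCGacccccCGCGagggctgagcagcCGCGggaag
The windows lie at chr12:104235897-104236146 (plus strand) for Serpina3g, chr16:36156561-36156810 (plus) for Stfa2l1, chr3:20242182-20242431 (minus) for Cpa3, chr11:43528499-43528748 (plus) for Ccnjl, chr6:90325186-90325435 (minus) for Chst13 and chr6:8509350-8509599 (plus) for Glcci1. Their GC contents are 46%, 47.2%, 44.4%, 74%, 52.8% and 74.4% in that order, and they hold 4, 0, 3, 26, 10 and 40 CG sites. The gain at Ccnjl, a cyclin J-like gene, is thus found on a promoter as rich in G and C as that of Glcci1, a glucocorticoid-induced transcript, where the mark was lower. Among the 12638 RefSeq promoters whose start lay in an H3K4me3 region, the median window held 17 CG sites at a GC content of 60.8%. It held 3 CG sites at 48% where the region was at least 1.5-fold higher in P199L-ERG (217 promoters) and 20 at 66% where it was at least 1.5-fold lower (1182 promoters). After GC adjustment the medians were 5 sites at 54% and 10 sites at 54.8%. The letters GGAA, the core of ETS binding sites, occurred on either strand in 94.9% of the promoters higher as deposited and 89.8% of those lower, in 91.5% of those higher and 91.9% of those lower after GC adjustment, in 93.1% of all promoters in regions and in 93.4% of all 32851 promoters of the table.

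A region was counted as higher or lower at 1.5-fold, with a pseudocount of 4.27 normalized reads added to both values. As deposited, 9244 regions were higher in P199L-ERG cells (21.4% of all) and 3834 were lower (8.89%). With libraries scaled to their total reads in regions instead, 13193 were higher and 1531 lower. After GC adjustment 3886 were higher (9.01%) and 4028 were lower (9.34%). Of the regions higher as deposited, 37.9% stayed at least 1.5-fold higher after adjustment, and of those lower as deposited 57.1% stayed lower. Most of these regions were small: those higher had a median width of 309 bp and 14.6 normalized reads, and those lower 398.5 bp and 27.1 normalized reads, against 595 bp and 43.4 normalized reads over all regions. The 95% exact interval of the read counts, which covers counting error only, lay above 0 for 5984 of the 9244 higher regions and below 0 for 2533 of the 3834 lower ones.

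Peak calls differed mostly at weak regions. The authors called 37612 peaks in the P199L-ERG library, 32523 in the WT-ERG library and 30787 in the empty-vector library. P199L-ERG and the empty vector both had a call at 27926 regions, only P199L-ERG at 9686 and only the empty vector at 2861. Regions called only in P199L-ERG had a median of 17 reads there and 8 in empty-vector cells, and regions called only in the empty vector had 10 in P199L-ERG cells and 16 in empty-vector cells. The median GC content was 45.4% in the regions called only in P199L-ERG and 52.1% in those called only in the empty vector.

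Start sites and distal regions differed as deposited. Of 14498 regions within 1 kb of an annotated start site, 6.28% stood higher and 10.5% lower in P199L-ERG cells, and the median log2 ratio was -0.27. Of 28630 distal regions 29.1% were higher and 8.07% lower, and their median was 0.21. With both split by CpG content, the lowest median was that of the 5327 start-site regions rich in CpG (an observed to expected ratio of at least 0.6). It was -0.41, with 1037 lower against 61 higher. The 2320 regions that overlapped H3K27me3, the Polycomb mark, had a median of -0.42 as deposited and -0.02 after adjustment. As deposited 30.8% of them were lower and 4.44% higher, against 8.89% and 21.4% of all regions. After adjustment the medians were -0.01 at start sites and 0.01 at distal regions, and of start-site regions 3.83% were higher and 3.72% lower. Start-site and distal regions differ in signal, with medians of 1161.5 and 22.5 normalized reads. The adjustment centres groups of GC content and signal, so their adjusted medians near 0 are largely set by it. The 931 distal CpG-rich regions kept a median of -0.17 after adjustment, with 200 lower and 54 higher. Among regions at least 4 kb wide, 30 of 1583 were higher (1.9%) and 0 were lower after adjustment. Among those 2 to 4 kb wide 93 of 6533 were higher (1.42%) and 12 lower (0.18%). Of all regions 9.01% were higher and 9.34% lower after adjustment. In reads, start-site regions held 88.2% of the P199L-ERG library and 90.4% of the empty-vector library.

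The single regions with the 5 largest GC-adjusted gains had 3 to 8 reads in empty-vector cells, and 4 of them lay at start sites. The rule took the 5 largest gains and 5 largest losses among the 21595 regions in which the larger of the pair reached 51.0 normalized reads. The largest gain was the start of Serpina3g (chr12:104235782-104237773), a serine protease inhibitor of the serpin clade A3 cluster, with 232 reads in P199L-ERG cells, 230 in WT-ERG cells and 8 in empty-vector cells. Its log2 ratio was 4.16 and 4.001 after adjustment, with a 95% counting interval of 3.72 to 5.95; intervals were computed from reads without the pseudocount, so a ratio on few reads lies near their lower end. The clade holds several similar genes in a row, and reads were aligned uniquely, so shared stretches are not covered. Il10ra, the ligand-binding chain of the interleukin 10 receptor, had 106 reads at its start (chr9:45267236-45269189) in P199L-ERG cells, 134 in WT-ERG cells and 7 in empty-vector cells, a log2 ratio of 3.18 (2.69 to 5.14) and 3.20 after adjustment. A region 1284 bp from a start site of Ipcef1 (chr10:6977335-6978427), a gene for an exchange factor partner of cytohesins, had 85 reads in P199L-ERG cells, 49 in WT-ERG cells and 3 in empty-vector cells, a log2 ratio of 3.52 (3.09 to 7.00) and 3.03 after adjustment. The starts of Ccnjl (chr11:43528477-43529515) and Mcoln2 (chr3:146149826-146150541), a cation channel of endolysosomes, had 56 and 72 reads in P199L-ERG cells, 111 and 111 in WT-ERG cells, and 5 and 8 in empty-vector cells. In all 5 the WT-ERG library stood with the P199L-ERG library, far above the empty vector; because both ratios share the empty-vector library, its low counts enter each of them.

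Further start sites with the same picture were chosen after their values were seen. Nlrc3, an inhibitory member of the NLR family of innate sensors, had 64 reads at its start in P199L-ERG cells, 115 in WT-ERG cells and 7 in empty-vector cells. Fbp1, the fructose-1,6-bisphosphatase of gluconeogenesis, had 543 reads in P199L-ERG cells, 300 in WT-ERG cells and 110 in empty-vector cells, and a GC-adjusted log2 ratio of 2.19. Myct1 had 250, 165 and 31 reads in the P199L-ERG, WT-ERG and empty-vector libraries. Acod1, which makes itaconate in activated myeloid cells, had 132 reads in P199L-ERG cells, 151 in WT-ERG cells and 28 in empty-vector cells. Among all 21595 regions above the minimum, 200 were at least 2-fold higher after adjustment and 68 at least 2-fold lower; 73 and 20 of these lay at start sites. At least 4-fold differences were found at 14 regions with gain and 2 with loss.

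**Figure D2:**
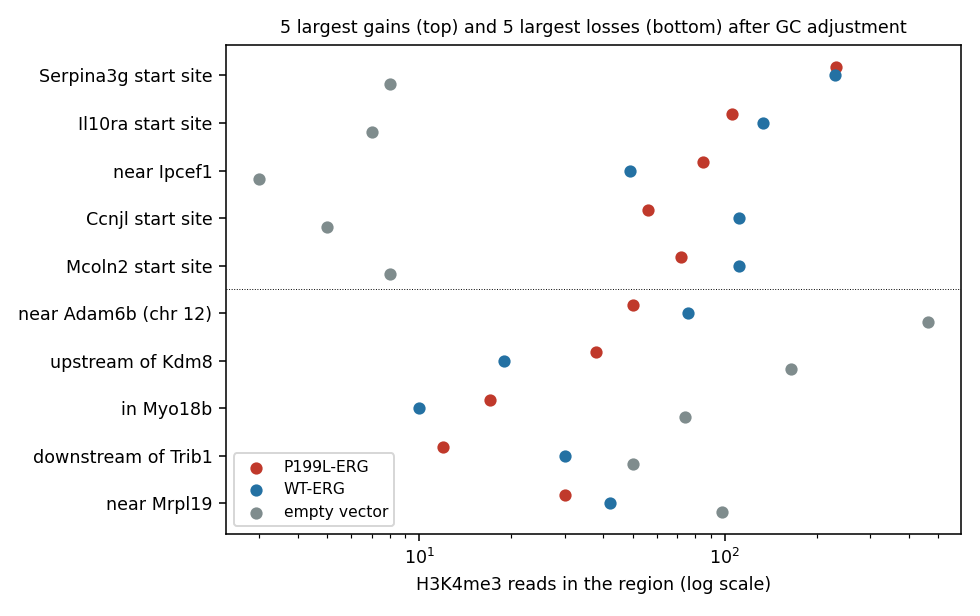
H3K4me3 reads on a log axis in P199L-ERG, WT-ERG and empty-vector cells for the 5 regions with the largest gains (above the dotted line) and the 5 with the largest losses (below it) after GC adjustment. In the gained regions the empty-vector library has 3 to 8 reads and both ERG libraries have 49 or more; in the lost regions the empty-vector library has 50 to 462 reads and lies above both ERG libraries.

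A cluster of stefin A genes on chromosome 16 held many of the next gains. Stefins A are inhibitors of cathepsins, and several of them are made in large amounts by mouse neutrophils and their precursors. The cluster was chosen after its values were seen. Between 36156811 and 36455392 GENCODE lists 10 genes, among them Stfa1, Stfa2, Stfa3, Stfa2l1, BC100530, BC117090 and Gm5483, and 17 H3K4me3 regions lie there. Their sum was 4068 normalized reads in P199L-ERG cells, 2004.5 in WT-ERG cells and 1015 in empty-vector cells, a log2 ratio of 1.998 as deposited and 1.496 after adjustment. After adjustment 14 of the 17 regions were at least 1.5-fold higher and 1 was lower, and the median GC content was 39.95%. At the start of BC100530 (chr16:36364687-36367610) there were 754 reads in P199L-ERG cells, 324 in WT-ERG cells and 134 in empty-vector cells. H3K9ac in the cluster summed to 1905 normalized reads in P199L-ERG cells, 2316 in WT-ERG cells and 841 in empty-vector cells, an adjusted log2 ratio of 0.94. H3K27ac summed to 2835 in P199L-ERG cells, 1349.5 in WT-ERG cells and 1075 in empty-vector cells, with an adjusted ratio of 0.38, under 1.5-fold. These genes are close copies of each other, so the division of reads between them is uncertain.

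The 5 largest losses had 50 to 462 reads in empty-vector cells, and 3 of them held no annotated start site. The largest was a GC-rich stretch of the immunoglobulin heavy chain locus between Adam6b and Tmem121 (chr12:113423812-113425494), which overlaps only predicted small RNA genes. It had 50 reads in P199L-ERG cells, 76 in WT-ERG cells and 462 in empty-vector cells, a log2 ratio of -3.23 (-3.79 to -2.92) and -2.75 after adjustment. The same stretch had 60, 58 and 269 reads of H3K9ac and 79, 122 and 701 reads of H3K27ac in the P199L-ERG, WT-ERG and empty-vector libraries, so it was low in both ERG lines in each of 3 marks. A region at the start of the noncoding gene 4933440M02Rik upstream of Kdm8 (chr7:125349226-125350171) had 38 reads in P199L-ERG cells, 19 in WT-ERG cells and 165 in empty-vector cells. The others lay in Myo18b, a myosin gene (17 reads in P199L-ERG cells, 10 in WT-ERG cells and 74 in empty-vector cells), downstream of Trib1, a pseudokinase that targets C/EBP alpha for degradation (12, 30 and 50 reads in the same order of libraries), and within Mrpl19, a mitochondrial ribosomal protein (30, 42 and 98). Of promoters chosen after their values were seen, Gpr25 was lower in P199L-ERG alone, with 31 reads against 115 in WT-ERG cells and 130 in empty-vector cells, at a region of 71.55% GC. Pknox2, a homeodomain factor, had 51 reads at its start in P199L-ERG cells, 72 in WT-ERG cells and 214 in empty-vector cells.

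Summed over the regions attached to each gene, 867 of 15571 genes were at least 1.5-fold higher in P199L-ERG cells (5.57%) and 809 were lower (5.2%), and the median log2 ratio over all genes was -0.22. Scaling to total reads moved that median to 0.037 and gave 1564 genes higher and 185 lower, so a small negative ratio as deposited, such as that of Mpo, Gata2 or Spi1 below, is positive under that scaling. After GC adjustment 396 were higher (2.54%) and 308 lower (1.98%), and the median was 0.00. Named genes had to reach 1802 normalized reads in the larger library, the median over genes. By this rule the 3 largest adjusted increases were at Lilrb4a, Cxcr2 and Emilin2, and the 2 largest as deposited at Lilrb4a and Ccr2. Lilrb4a (chr10:51490956-51496611), an inhibitory immunoglobulin-like receptor of myeloid cells, had 1962 normalized reads in P199L-ERG cells, 1129 in WT-ERG cells and 468 in empty-vector cells. Its log2 ratio was 2.06 (1.92 to 2.22) and 1.80 after adjustment, and the region around its close copy Lilr4b took part in the sum. Cxcr2 (chr1:74153989-74161246), the chemokine receptor that draws neutrophils from the marrow, had 1815 in P199L-ERG cells, 1593 in WT-ERG cells and 887 in empty-vector cells, a log2 ratio of 1.03 and 1.10 after adjustment. Ccr2 (chr9:124101950-124113557), the receptor of monocytes for CCL2, had 2754 in P199L-ERG cells, 1270 in WT-ERG cells and 819 in empty-vector cells. Its ratio of 1.74 was 0.93 after adjustment, on regions of 39.0% GC.

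S100a8 and S100a9, the calprotectin pair of neutrophils, share regions on chromosome 3 and were higher in P199L-ERG cells. S100a9 had 2739 normalized reads in P199L-ERG cells, 1494 in WT-ERG cells and 1328 in empty-vector cells, with a log2 ratio of 1.04 (0.95 to 1.14) and 0.86 after adjustment, and S100a8 had 1.03 and 0.84. At the region over S100a8 itself (chr3:90668958-90672860) there were 1663 reads in P199L-ERG cells, 719 in WT-ERG cells and 747 in empty-vector cells, so WT-ERG lay with the empty vector there. Csf3r, the receptor of granulocyte colony-stimulating factor, had 2640 normalized reads in P199L-ERG cells, 2139 in WT-ERG cells and 1777 in empty-vector cells, a ratio of 0.57 and 0.79 after adjustment. Ifitm1 and Ifitm3 are interferon-induced membrane proteins that share regions. Ifitm1 stood at 0.65 and, adjusted, 0.85, and Ifitm3 at 0.49 and, adjusted, 0.72. At their own starts Ifitm1 had 0.77 and, adjusted, 1.08, and Ifitm3 only 0.09 and, adjusted, 0.42. Nfe2, a basic leucine zipper factor of megakaryocytes and neutrophils, had 5157 normalized reads in P199L-ERG cells, 3460 in WT-ERG cells and 3627 in empty-vector cells, with ratios of 0.51 and 0.63. Tex33 owed its place to a region it shares with Csf2rb, the common beta chain of the GM-CSF and interleukin 3 receptors (chr15:78325285-78333395), with 3720 reads in P199L-ERG cells, 2539 in WT-ERG cells and 2356 in empty-vector cells.

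Emilin2 encodes an extracellular matrix glycoprotein and shares regions with Lpin2. It had 3796 normalized reads in P199L-ERG cells, 4046 in WT-ERG cells and 2055 in empty-vector cells, a ratio of 0.88 and 1.03 after adjustment. The region at its start had 351 reads in P199L-ERG cells, 464 in WT-ERG cells and 303 in empty-vector cells, with ratios of 0.08 and 0.46, while a region over the far end of the gene (chr17:71251645-71257329) had 2443, 2605 and 1000 in the same order of libraries. Other large increases as deposited lay on AT-rich regions and were smaller after adjustment. Cd53, a tetraspanin of leukocytes, had a ratio of 1.29 and 0.47 after adjustment. Rgs18, a regulator of G protein signalling in platelets and myeloid cells, had 1.17 and 0.33, Calcrl, the calcitonin receptor-like receptor, 1.06 and 0.26, and the olfactory receptor Olfr693, which shares its regions with Gm4070, 1.08 and 0.31.

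**Figure D3:**
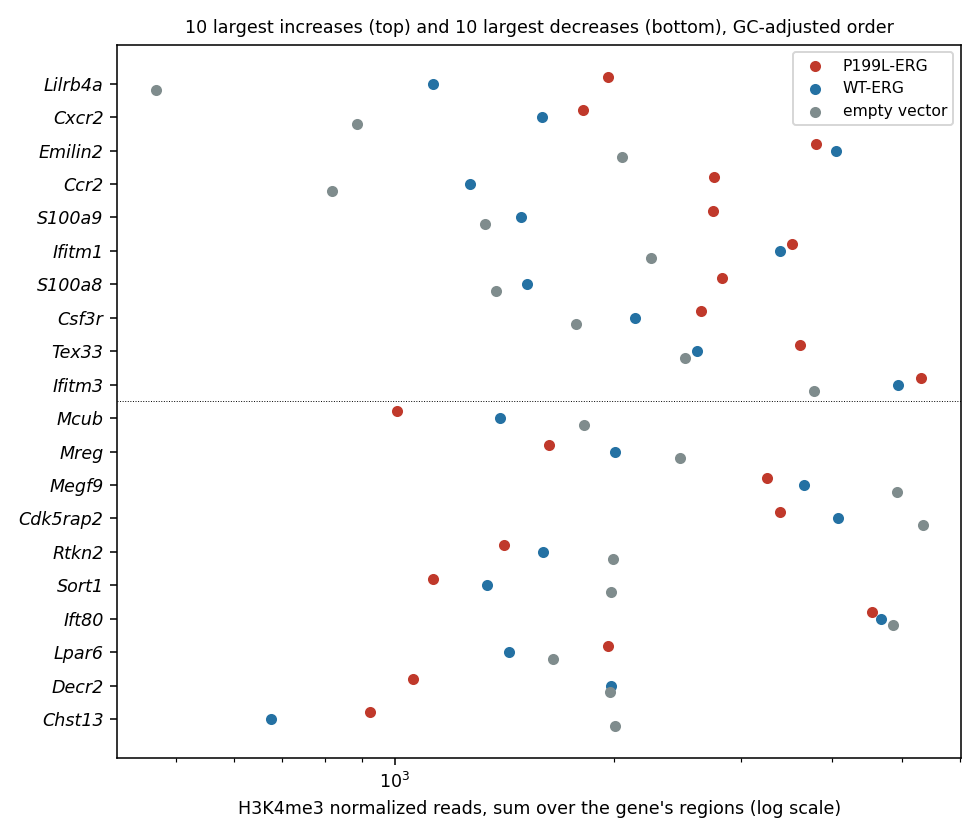
Normalized H3K4me3 reads summed over each gene's regions, on a log axis, in P199L-ERG, WT-ERG and empty-vector cells, for the 10 largest increases (top) and 10 largest decreases (bottom) by GC-adjusted log2 ratio. At Lilrb4a the 3 libraries have 1962, 1129 and 468, and at Chst13 both ERG libraries (924 and 676) lie below the empty vector (2007).

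Decreases were smaller, and the largest belonged to Chst13. Chst13 (chr6:90308349-90325185), a chondroitin 4-O-sulfotransferase, had 924 normalized reads in P199L-ERG cells, 676 in WT-ERG cells and 2007 in empty-vector cells. Its log2 ratio was -1.12 (-1.23 to -1.01) and -0.84 after adjustment, and -1.56 in WT-ERG. Its start-site region had 653 reads in P199L-ERG cells, 457 in WT-ERG cells and 1314 in empty-vector cells, and 6 of its 7 regions were at least 1.5-fold lower as deposited; its neighbour BC048671 shares regions with it. Decr2, the peroxisomal dienoyl-CoA reductase, had 1058 in P199L-ERG cells, 1982 in WT-ERG cells and 1976 in empty-vector cells, with ratios of -0.90 and -0.59 after adjustment, and here WT-ERG lay at the level of the empty vector. Sort1, the sorting receptor sortilin, had 1130 in P199L-ERG cells, 1337 in WT-ERG cells and 1983 in empty-vector cells, with -0.81 and -0.53. Mreg, melanoregulin, had -0.60 and -0.48 over all its regions, and -1.24 and -0.91 at its start. Megf9 and Cdk5rap2 share their largest region (chr4:70530883-70536614), with 2916 reads in P199L-ERG cells, 3201 in WT-ERG cells and 4262 in empty-vector cells. Glcci1, the adherens junction gene Ctnna1, the apoptosis regulator Diablo and the kinesin gene Kif1b were among the 10 largest decreases as deposited, with ratios of -0.87, -0.87, -0.83 and -0.83. After adjustment they had -0.46, -0.41, -0.24 and -0.39. Lpar6, a lysophosphatidic acid receptor, and Ift80, a protein of ciliary transport, entered only through the adjustment: their ratios as deposited were 0.25 and -0.10, against -0.57 and -0.54 after it.

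Genes of mature neutrophils had the highest median ratio among 25 lists, as deposited and adjusted. All 25 members of that list had regions. As deposited 9 were at least 1.5-fold higher and 1 was lower, against 5.57% and 5.2% of all genes, and the median ratio was 0.43 beside -0.22 over all genes. After adjustment 8 were higher and 1 lower, against 2.54% and 1.98%, with a median of 0.25 beside 0.00, and 22 of 25 lay above 0. The higher members after adjustment were Lilrb4a, Cxcr2, S100a8, S100a9, Csf3r, Stfa1 at 1.31, Retnlg at 1.14 and Il1r2, the decoy receptor of interleukin 1, at 0.60. Retnlg, a resistin-like protein of neutrophils, is at the edge of detection, with 19.0 normalized reads in P199L-ERG cells, 5.02 in WT-ERG cells and 1.04 in empty-vector cells. The neighbouring C-type lectins Clec4d and Clec4e, which recognise mycobacterial lipid, had 0.84 and 0.83 as deposited and 0.52 each after adjustment. Anxa1, an inhibitor of inflammation, differed in sign between the scales, with 0.47 as deposited and -0.36 after adjustment. The member that was lower was Ly6g, the neutrophil surface antigen, with 522 normalized reads in P199L-ERG cells, 302 in WT-ERG cells and 828 in empty-vector cells, a ratio of -0.66 and -0.68 after adjustment. In WT-ERG against the same empty-vector library the list had a median of 0.12.

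Granule genes had adjusted medians of 0.18 (primary) and 0.12 (secondary and tertiary). Of 15 measured primary granule genes, 1 was higher (6.67%, against 5.57% of all genes) and 0 were lower (against 5.2%) as deposited. After adjustment 0 were higher and 0 lower, against 2.54% and 1.98% of all genes. The medians of this list were 0.09 as deposited and 0.18 adjusted, and 13 of 15 lay above 0 after adjustment. Mpo, the myeloperoxidase gene, had 7026 normalized reads in P199L-ERG cells, 6825 in WT-ERG cells and 7344 in empty-vector cells, with ratios of -0.06 and 0.25. Elane, neutrophil elastase, had -0.18 and 0.22 on 1 region that is not within 1 kb of its annotated start. Ctsg, cathepsin G, had 0.28 and 0.29. Fcnb, the ficolin of early granulocytes, was the lowest member, with 605 in P199L-ERG cells, 403 in WT-ERG cells and 903 in empty-vector cells, and ratios of -0.57 and -0.48. Of 17 secondary and tertiary granule genes 3 were higher as deposited (17.6%, against 5.57% of all genes) and 1 after adjustment (5.88%, against 2.54%), and 0 were lower on either scale. That 1 was Cd177, a neutrophil surface protein, at 0.82. Camp, the cathelicidin gene, had 234 normalized reads in P199L-ERG cells and 296 in empty-vector cells, with ratios of -0.33 and -0.32. Ltf, lactoferrin, had 120 in P199L-ERG cells and 127 in empty-vector cells, with ratios of -0.07 and 0.02. Itgam, the CD11b integrin chain, had ratios of 0.34 and 0.26.

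**Figure D4:**
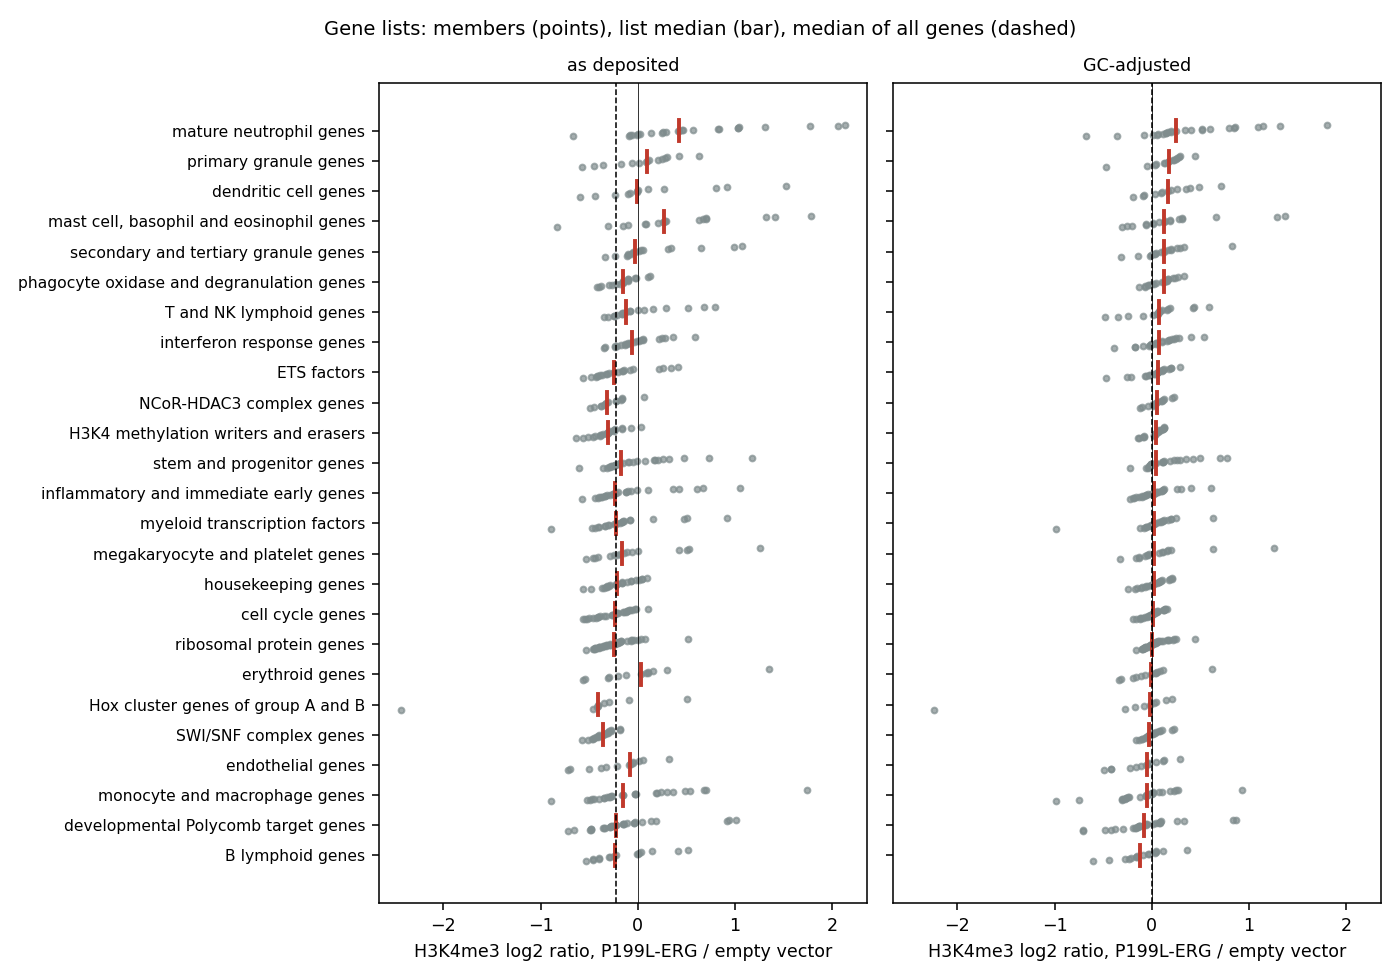
H3K4me3 log2 ratio of P199L-ERG over empty vector for each measured member (points) of 25 gene lists, with the list median (bar) and the median of all genes (dashed), as deposited (left) and GC-adjusted (right). The mature neutrophil list has the highest median on both sides, 0.43 and 0.25, and ribosomal, cell cycle and housekeeping genes cluster at the dashed lines.

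Mast cell, basophil and eosinophil genes had 7 of 18 measured members higher and 1 lower as deposited, and 3 higher and 0 lower after adjustment. The higher members were 38.9% and 16.7% of the list, against 5.57% and 2.54% of all genes. The lower ones were 5.56% and 0%, against 5.2% and 1.98%. The 3 higher after adjustment were Cpa3, the mast cell carboxypeptidase, Tpsab1, a tryptase, and Ccr3, the eotaxin receptor. Ccr3 shares regions with its neighbour Ccr2, so the same reads count for both. Cpa3 had 1271 normalized reads in P199L-ERG cells, 621 in WT-ERG cells and 367 in empty-vector cells, with ratios of 1.78 and 1.28. Tpsab1 had 474 in P199L-ERG cells, 514 in WT-ERG cells and 187 in empty-vector cells. Monocyte and macrophage genes showed no common direction, with 3 higher and 1 lower of 29 as deposited, 1 and 2 after adjustment, and medians of -0.16 and -0.05. These are 10.3% and 3.45% as deposited, against 5.57% and 5.2% of all genes, and 3.45% and 6.9% after adjustment, against 2.54% and 1.98%. Ly6c2, a surface antigen of monocytes, had 1434 normalized reads in P199L-ERG cells, 857 in WT-ERG cells and 1740 in empty-vector cells, so that WT-ERG was lowest. Clec12a, an inhibitory lectin of myeloid cells, had 0.54 as deposited and -0.25 after adjustment, and Csf1r, the receptor of macrophage colony-stimulating factor, had -0.15 and 0.02.

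Of 28 stem and progenitor genes 2 were higher after adjustment (7.14%, against 2.54% of all genes) and 0 were lower, and the median was 0.04. Erg itself had 6284 normalized reads in P199L-ERG cells, 5339 in WT-ERG cells and 5234 in empty-vector cells, a ratio of 0.26 (0.21 to 0.32) and 0.29 after adjustment. Its largest region, over a start site (chr16:95450442-95462358), had 5492 reads in P199L-ERG cells, 4378 in WT-ERG cells and 4237 in empty-vector cells. These are reads over mouse Erg regions; whether any came from the human cDNA was not tested. Gata2, a zinc finger factor of stem cells and mast cells, had ratios of -0.16 and 0.19, Meis1, a homeodomain cofactor of Hoxa9, -0.19 and -0.01, Kit -0.26 and -0.01, and Cd34 -0.28 and -0.06. Hoxa9 had no H3K4me3 region attached to it. The 2 higher members were Cd48, a SLAM-family receptor, and the weakly marked Slamf1, with adjusted ratios of 0.77 and 0.70.

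Adjusted ratios of 23 myeloid transcription factors ran from -0.98 to 0.63 (Nfe2), with a median of 0.03. On each scale 1 was at least 1.5-fold higher and 1 lower (4.35% each). Of all genes 5.57% were higher and 5.2% lower as deposited, and 2.54% and 1.98% after adjustment. Cebpa, Spi1, Cebpe and Irf8 had small adjusted differences. Cebpa had 7956 normalized reads in P199L-ERG cells, 10652 in WT-ERG cells and 9822 in empty-vector cells, with a ratio of -0.30 as deposited and 0.12 after adjustment. Spi1, which encodes PU.1, had -0.15 and 0.20, Cebpe, the factor of terminal granulopoiesis, -0.24 and 0.08, and Irf8, the factor of the monocyte and dendritic branch, -0.29 and 0.01. Itga2b, the CD41 chain of megakaryocytes, had -0.18 and 0.16. Uaca had 0.71 and 0.76 over 22 distal regions, none at its start, that it mostly shares with its neighbour Tle3.

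Constitutive genes stayed near the median of all genes, and chromatin genes lay below it as deposited and near it only after adjustment. Of all genes 5.57% were higher and 5.2% lower as deposited, and 2.54% and 1.98% after adjustment. None of 41 ribosomal protein genes, 30 cell cycle genes, 23 housekeeping genes, 21 SWI/SNF genes or 14 NCoR-HDAC3 genes passed 1.5-fold in either direction, as deposited or adjusted. Their medians as deposited were -0.24, -0.24, -0.21, -0.36 and -0.32, against -0.22 over all genes, and after adjustment they were 0.00, 0.01, 0.02, -0.03 and 0.05. Of 23 genes for H3K4 methyltransferases and demethylases 1 passed as deposited (4.35%), the MLL partner Psip1 at -0.64, and none after adjustment. The median of that list was -0.31 as deposited and 0.05 after adjustment. Hdac3 had -0.23 and 0.23. Interferon response genes had 1 of 22 higher as deposited (4.55%, against 5.57% of all genes) and 0 after adjustment, with an adjusted median of 0.07. B lymphoid genes had the lowest adjusted median, -0.12, with 1 of 16 lower (6.25%, against 1.98% of all genes). Hox genes of clusters A and B had 9 of 20 members with a region. On each scale 1 of those 9 was lower (11.1%). The lowest adjusted ratio, -2.24, belonged to a member below the minimum of 1802 normalized reads set for named genes. Above that minimum Hoxb9 and Hoxb4 had adjusted ratios of 0.05 and -0.02.

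The acetylation marks of the same lines differed in the same direction at these regions. At H3K9ac regions that overlapped an H3K4me3 region higher in P199L-ERG, the median H3K9ac ratio was 0.32 as deposited and 0.30 after both marks were adjusted. At those overlapping a lower H3K4me3 region it was -0.37 and -0.20. For H3K27ac the medians were 1.08 and 0.55 at higher regions and -0.71 and -0.16 at lower ones, and for H3K4me1, the mark of primed enhancers, 0.12 and 0.05 at higher and -0.25 and -0.065 at lower regions. Adjusted H3K27ac was at least 1.5-fold higher at 47.4% of its regions with H3K4me3 gain, against 20.9% of all H3K27ac regions. The difference was smaller for losses. At its regions with H3K4me3 loss adjusted H3K27ac was lower at 27.1% and higher at 11.3%, against 20.8% and 20.9% of all. H3K27me3, the Polycomb mark, had adjusted medians of -0.09 and -0.04. Over genes above the minimum, the rank correlation between adjusted H3K4me3 and H3K9ac ratios was 0.617 (7782 genes), with H3K27ac 0.464 (7779 genes), with H3K4me1 0.136 and with H3K27me3 -0.02; genes that share regions are not independent, and each mark has its own libraries from the same lines. At Lilrb4a the adjusted H3K9ac and H3K27ac ratios were 1.44 and 0.44, at Cxcr2 0.79 and 0.85, at S100a9 0.49 and 0.62 and at Csf3r 0.65 and 0.57. At Chst13 they were -0.80 and -0.44.

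**Figure D5:**
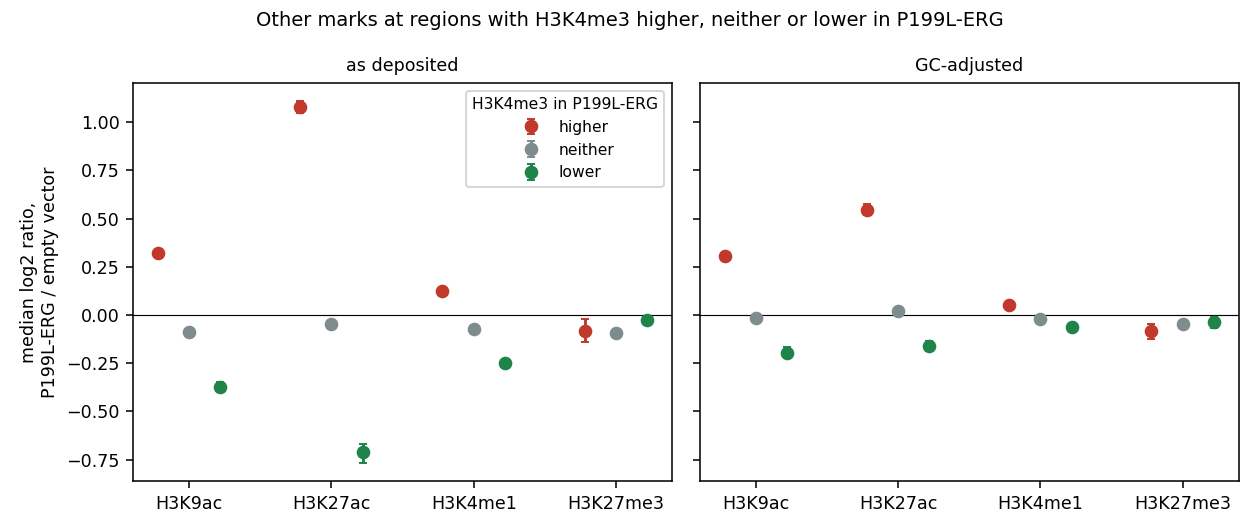
Median log2 ratio of P199L-ERG over empty vector for 4 other marks at their regions that overlap H3K4me3 regions higher, neither or lower in P199L-ERG, as deposited (left) and GC-adjusted (right); bars are order-statistic intervals over regions, which are not replicates. H3K27ac has 1.08 and -0.71 as deposited and 0.55 and -0.16 after adjustment.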

How the data were processed

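ChIP-seq reads of ER-Hoxb8 cells were handled by the authors as follows, per the labels and the study's methods: adapters were trimmed with Cutadapt, reads were placed uniquely on mm10 with Bowtie, MACS2 called peaks, the peaks of the 3 lines were merged for each mark, and GREAT attached genes. The deposited table gives, for every merged region and library, a read count, a normalized signal and a peak call of 0 or 1. The normalized signal deposited by the authors is the count times 1 factor per library; its origin and the treatment of duplicates are not given in the sources used here. The pooled IgG sample was not analysed here.

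Ratios are log2 of normalized reads after adding 10% of the median (4.27 for H3K4me3), and a gene's value is the sum over its attached regions, counted once each. A region between neighbours counts for both. GC content came from GRCm38.p6, and start sites from GENCODE vM21. The attached distances matched the annotation at 29924 of 32041 gene and region pairs with starts counted from 1. GC adjustment centred log2 deviations within 20 GC groups crossed with 10 signal groups over 3 libraries, and was tested on simulated data. Count intervals are 95% exact (Clopper-Pearson) and cover counting error only. The members, gene lists and named-gene rule (the 10 largest changes each way, as deposited and adjusted, above the median value, 3 genes per list, and fixed genes) were chosen with earlier results of these data known. Python 3.11.15 with numpy 2.4.6, pandas 2.3.3, scipy 1.17.1, pysam 0.24.0 and matplotlib 3.10.9 was used. Alternatives were total-read scaling, a pseudocount 5 times larger, a 2-fold threshold, and subsets of regions (without the 25% of lowest signal, called in both libraries, at start sites).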

Additional observations from a re-analysis of the deposited data

How the results depend on the processing

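No paired analysis was possible because each mark and line had 1 library. With libraries scaled to their total reads in regions, 1531 regions were lower, 1564 genes were higher and 185 lower, and the median over genes was 0.037. GC adjustment left 3886 regions higher, 396 genes higher and 308 lower, and a median of 0.0023. A pseudocount 5 times larger gave 3393 regions higher and 1617 lower, 555 genes higher and a median of -0.22. Without the 25% of regions of lowest signal there were 4607 regions higher and 2544 lower, with a gene median of -0.23. A 2-fold threshold left 4139 regions higher and 699 lower, and 343 genes higher and 71 lower. Regions called in both libraries gave 2145 higher and 1986 lower, 371 genes higher and 736 lower with a gene median of -0.24, and start-site regions alone 221 genes higher and 1131 lower with a median of -0.31, so more genes were lower than higher under both, against 867 higher and 809 lower over all regions.

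Within regions of above-median signal the extreme GC groups had medians of 0.50 and -0.52. With start sites widened to 2.5 kb, 11.4% of start-site regions were higher. After GC adjustment the shares higher and lower were 3.83% and 3.72% at start sites and 11.6% and 12.2% at distal regions. At H3K4me3 regions higher and lower in P199L-ERG, adjusted medians were 0.30 and -0.20 for H3K9ac, 0.55 and -0.16 for H3K27ac and 0.054 and -0.065 for H3K4me1; as deposited, with overlap over 50%, the medians were 0.36 and -0.46, 1.36 and -1.16, and 0.25 and -0.47. The causes were not tested. No named gene or list median past 1.5-fold changed sign under the settings tried, while 37 named genes and 16 list medians below 1.5-fold did on GC adjustment, and 36 and 17 on total-read scaling; 94 of 114 named genes left their counting interval on GC adjustment and 113 on total-read scaling. Distal regions rest on few reads, so their single differences are the least certain.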
